A study of Mus musculus with 30 samples.

Results

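Fibroblasts of the mouse small intestine that carry intermediate PDGFRa were compared with those that carry high PDGFRa, 3 libraries against 3, which is 6 of the 30 libraries of the series. The libraries were chosen by their labels alone, and no measured value was used. The first population is called Fgfr2+ FB and was sorted as ESAM-1-PDGFRaintCD34- cells, and the second is called PDGFRahi FB and was sorted as ESAM-1-PDGFRahiCD34- cells. Both came from the lamina propria of untreated C57BL/6Nrj mice, 8 to 10 weeks old, and the labels name 3 individual mice as the source. Dead, lineage, CD31+, BP3+, EpCAM+ and NCAMhi cells were gated out before either population was collected. The gates thus differed in PDGFRa protein, and the Pdgfra transcript level follows from the sort.

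Total RNA of the sorted cells was amplified and sequenced as single reads of 50 bases, and the deposited values are counts estimated per transcript. Library totals were 15098412, 10286761 and 2245052 estimated counts in Fgfr2+ FB and 7327358, 18148945 and 8041204 in PDGFRahi FB, so Fgfr2+ FB replicate 3 was the shallowest. Levels below are CPM, a gene's count relative to the library total after TMM scaling over all 30 libraries, given for replicates 1, 2 and 3 in that order. Differences are on the log2 scale, Fgfr2+ FB minus PDGFRahi FB, from edgeR's quasi-likelihood test with its standard error (SE). Adjusted p is the Benjamini-Hochberg value over all genes tested. A gene was called at an adjusted p below 0.05 and a log2 difference above 1.5 in size.

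As background, fibroblasts beneath the gut epithelium set the signals that epithelial stem cells and their progeny receive. Wnt proteins, R-spondins and BMP antagonists such as gremlin favour stem cell renewal at the crypt base. BMP ligands from PDGFRa-high cells next to the epithelium, also described as telocytes, favour differentiation along the villus. Fibroblasts also build the matrix, handle retinoids and send cytokines and chemokines to leukocytes.

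The labels were checked against the markers first. Fgfr2, the receptor tyrosine kinase for which the first population is named, was read at 1455, 2018 and 1582 CPM in Fgfr2+ FB and at 39.6, 66.9 and 38.7 in PDGFRahi FB. Every Fgfr2+ FB library stood far above every PDGFRahi FB library (log2 difference 5.12, SE 0.33, adjusted p = 9.46e-05). Pdgfra, the receptor used for the gates, was read at 662, 664 and 592 CPM in Fgfr2+ FB against 6092, 6587 and 6409 in PDGFRahi FB. The high gate held the high transcript levels in all 3 libraries (log2 difference -3.32, SE 0.19, adjusted p = 3.73e-05), and no library of either population lay between the groups. Adamdec1, a disintegrin-like metalloprotease of gut fibroblasts, was abundant in both, at 22343, 19405 and 17057 CPM in Fgfr2+ FB and 4445, 5047 and 4754 in PDGFRahi FB. The Fgfr2+ FB libraries were the higher ones without overlap (log2 difference 2.04, SE 0.17, adjusted p = 0.000327), and the call was lost in the model of all 30 libraries (adjusted p = 0.0809). In GRCm38 these genes lie at chr7:130162451-133123350, minus strand (Fgfr2), chr5:75152292-75198215, plus strand (Pdgfra) and chr14:68563380-68582095, minus strand (Adamdec1). In bulk samples fewer cells of a type and less RNA per cell cannot be told apart.

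Cd34, absent from both gates at the protein level, was read at 136, 86.2 and 37.1 CPM in Fgfr2+ FB and 99.8, 91.5 and 153 in PDGFRahi FB, against 625 ± 61.5 (SD, n = 3) in the CD34+ fibroblasts of the same tissue. Those 6 libraries overlapped (log2 difference -0.41, SE 0.47, adjusted p = 0.785). Ncam1, whose brightest cells were gated out of both populations, was read at 1211, 1217 and 1197 CPM in Fgfr2+ FB and 76.3, 94.4 and 94.7 in PDGFRahi FB. The Fgfr2+ FB libraries were almost equal to each other and all above the rest (log2 difference 3.77, SE 0.24, adjusted p = 9.55e-05).

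Of the 6 libraries, Fgfr2+ FB replicate 1 stood apart from the other two of its population. On the first principal component of the log2 levels, with 36.9% of the variance, it lay at 140 where replicates 2 and 3 lay at 45.3 and 41.3 and the PDGFRahi FB libraries at -73.6, -69.7 and -83.7. On the second, with 25% of the variance, it lay at 98.0 against -93.6 and -84.0 for its own group. The lowest correlation of log2 levels within Fgfr2+ FB was 0.764, near the highest with a library of the other population (0.788), and within PDGFRahi FB it was 0.854. The biological coefficient of variation was 0.819 in Fgfr2+ FB and 0.531 in PDGFRahi FB. What set this library apart was not tested, and its part in the counts is given beside them.

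The populations differed at 460 of 14234 genes tested (3.23%), 233 higher in Fgfr2+ FB (1.64%) and 227 higher in PDGFRahi FB (1.59%). At an unadjusted p below 0.05, 2017 genes passed. The 6 libraries did not overlap between groups for 2979 genes (20.9%) and for 459 of the 460 called genes. The median difference over all genes tested was 0.07. Without Fgfr2+ FB replicate 1 the count was 438, 198 higher in Fgfr2+ FB and 240 higher in PDGFRahi FB, and 353 of the 460 genes were called both times. The count fell to 233 without PDGFRahi FB replicate 1, to 231 without its replicate 2 and to 267 without its replicate 3. It was 330 without Fgfr2+ FB replicate 2 and 363 without its replicate 3. Of the 460 genes, 178 (38.7%) were called without each library in turn, and 86 lacked the counts to be tested without some library of the population where they were high. Where a gene named below lost its call without 1 library, that library is named beside it.

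**Figure D1:**
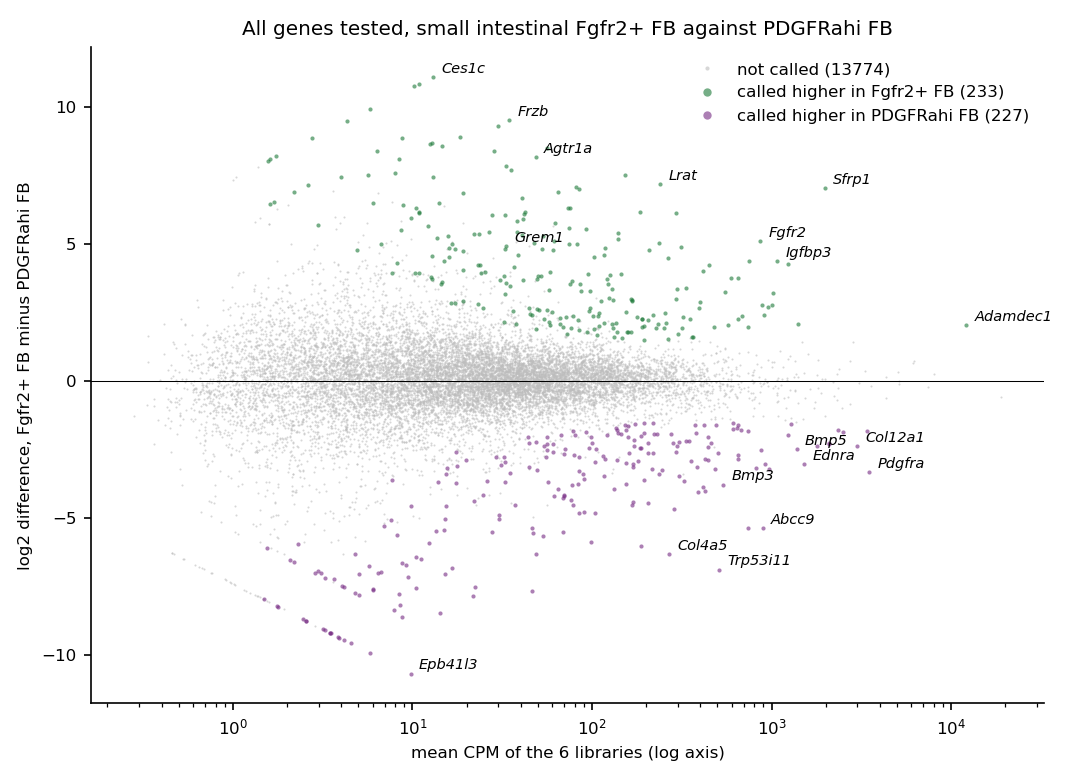
Log2 difference of each of the 14234 genes tested (y axis, Fgfr2+ FB minus PDGFRahi FB) against its mean CPM over the 6 libraries (x axis, log scale), with the 233 genes called higher in Fgfr2+ FB in green and the 227 called higher in PDGFRahi FB in purple. Sfrp1 and Fgfr2 combine a high level with a large difference on the Fgfr2+ FB side, as do Pdgfra and Trp53i11 on the other.

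Between these populations, several of the largest differences were genes read on a single side. The esterase gene Ces1c was read at 43.4, 21.9 and 12.5 CPM in Fgfr2+ FB and at 0 in every PDGFRahi FB library. Measured against a floor of 3 counts per library, which covers counting error only, its mean was at least 86.7-fold higher in Fgfr2+ FB (adjusted p = 0.00485). The same floor put Tlr12, a Toll-like receptor, at least 68.5-fold higher from 16.7, 32.6 and 12.1 CPM (adjusted p = 0.00552). On the other side Epb41l3, a protein that links membrane to cytoskeleton, was read at 22.8, 27.6 and 8.28 CPM in PDGFRahi FB and at 0 in every Fgfr2+ FB library, at least 37-fold (adjusted p = 0.00785). Cacna2d3, an accessory subunit of calcium channels, was read at 10.4, 13.7 and 10.8 CPM in PDGFRahi FB with no count in Fgfr2+ FB, at least 22-fold (adjusted p = 0.0111). In all, 9 called genes had no count in any PDGFRahi FB library and 17 had none in any Fgfr2+ FB library. Genes of this kind, and others under 6 counts in every library of a population, met the count filter only through the population that held them. Their adjusted p values are therefore descriptions and not evidence of a difference. They could not be tested without a library of the population that held them.

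The highest transcript held 27.8, 32.0 and 19.7% of TPM in the Fgfr2+ FB libraries and 49.2, 51.1 and 14.8% in those of PDGFRahi FB, so libraries weigh unequally in a mean TPM, which serves for order within a population. The genes called higher in Fgfr2+ FB with the highest mean TPM there were Adamdec1 (15242 TPM), Tmem176b (2391), Tmem176a (2265), Sfrp1 (1627), Igfbp3 (1611), Fgfr2 (1383), Mfap4 (1356), Zeb2 (1076) and Aldh1a3 (1049). Tmem176a and Tmem176b, neighbouring genes for membrane proteins of the same family, stood at 2305, 1659.9 and 989 and 2042, 1789 and 778 CPM in Fgfr2+ FB and at 326, 339 and 107 and 276, 300.1 and 93.5 in PDGFRahi FB. Both were higher in every Fgfr2+ FB library (2.69 ± 0.46, adjusted p = 0.0123 for Tmem176a and 2.79 ± 0.49, adjusted p = 0.0133 for Tmem176b). Among genes called higher in PDGFRahi FB the list was led by Cald1 (2993 TPM), Pdgfra (2913), Prelp (2091), the pseudogene Gm28439 (2007), Thbd (1549), Trp53i11 (1508), Aldh1a1 (1451) and Ednra (1449). All 31-base words of Gm28439 also occur in transcripts of other genes, so its value is uncertain.

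Thbd, the thrombin receptor thrombomodulin, was read at 2852, 3397 and 2700.3 CPM in PDGFRahi FB against 715, 503 and 519 in Fgfr2+ FB. Each PDGFRahi FB library exceeded each Fgfr2+ FB library several times over (log2 difference -2.37, SE 0.23, adjusted p = 0.000714). Trp53i11 was read at 1320.3, 1242 and 469 CPM in PDGFRahi FB and 6.91, 11.7 and 6.62 in Fgfr2+ FB, close to absent from the latter (log2 difference -6.89, SE 0.51, adjusted p = 0.000204). Prelp, a leucine-rich repeat protein that ties basement membrane to stroma, was read at 4083, 4746 and 2044 CPM in PDGFRahi FB and 1354, 1183 and 629 in Fgfr2+ FB. The groups did not overlap (log2 difference -1.78, SE 0.36, adjusted p = 0.0288), but the call was lost without PDGFRahi FB replicate 1 or 2 or Fgfr2+ FB replicate 2 or 3 (adjusted p between 0.0782 and 0.097).

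The pathway lists held 770 genes in 39 lists, of which 600 were tested and 125 called (20.8%, against 3.23% of all genes tested), 70 higher in Fgfr2+ FB and 55 higher in PDGFRahi FB. Without PDGFRahi FB replicate 1 or 2 the count of called list genes was 80. Since the lists were chosen with earlier results of these data known, this share is a description. Counts of list members by DESeq2 or by unadjusted p below 0.05 stand beside 990 and 2017 of all 14234 genes tested.

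**Figure D2:**
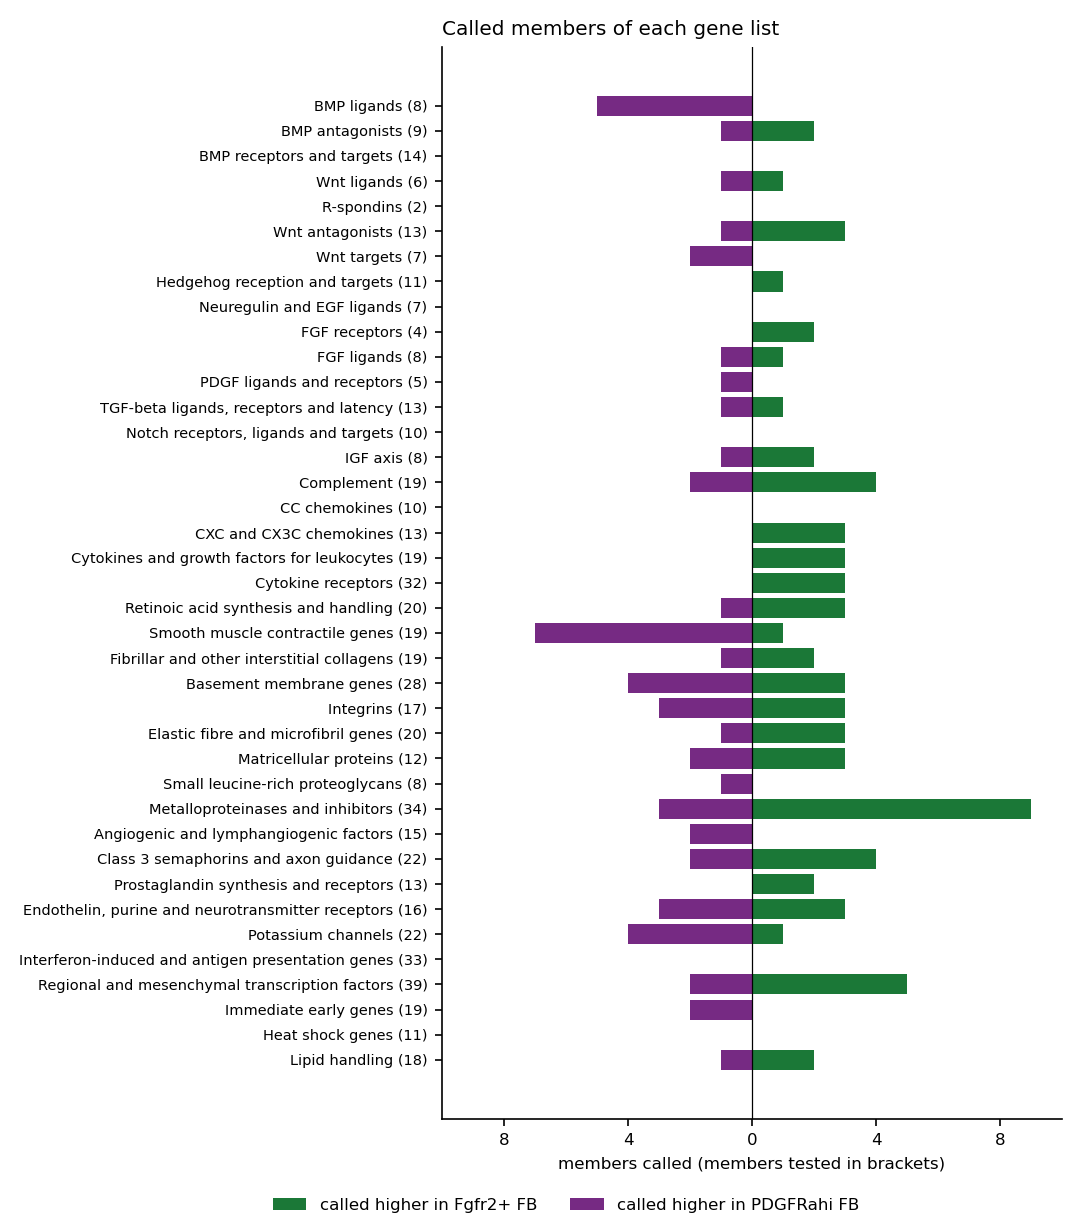
Number of members of each gene list called higher in PDGFRahi FB (left of 0, purple) and in Fgfr2+ FB (right of 0, green), with the members tested in brackets. Calls among BMP ligands (5 of 8) and contractile genes (7 of 19) lie mainly on the PDGFRahi FB side, and those among complement, CXC chemokines, cytokines and metalloproteinases mainly on the Fgfr2+ FB side. The BMP count holds Gdf6, whose call is a description, as it met the count filter only through PDGFRahi FB.

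Of 8 BMP ligands tested, 5 were called, all higher in PDGFRahi FB (Gdf6 among them as a description only), and the list's median difference was -2.70. Bmp5 was read at 2122, 2301 and 2603 CPM in PDGFRahi FB against 443, 399 and 401 in Fgfr2+ FB, with narrow spread in both groups and a wide gap between them (log2 difference -2.50, SE 0.21, adjusted p = 0.000365). Bmp3, an atypical ligand that can dampen BMP signals, was read at 1072, 969 and 953 CPM in PDGFRahi FB and 84.7, 44.6 and 89 in Fgfr2+ FB. Every PDGFRahi FB library was many times higher (log2 difference -3.78, SE 0.33, adjusted p = 0.000459). Bmp7 followed the same order at 991, 1033 and 614 and 168, 66.9 and 49.6 CPM, with its highest Fgfr2+ FB value in replicate 1 and no overlap (log2 difference -3.21, SE 0.47, adjusted p = 0.0054).

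Bmp2 was lower in level, at 188, 139 and 208 CPM in PDGFRahi FB and 14.3, 22.4 and 59.6 in Fgfr2+ FB (log2 difference -2.50, SE 0.53, adjusted p = 0.0347). Its call depended on single libraries and was lost without PDGFRahi FB replicate 1, 2 or 3 or Fgfr2+ FB replicate 1 or 2 (adjusted p between 0.0503 and 0.134). Gdf6 was read at 10.7, 8.73 and 10.8 CPM in PDGFRahi FB and had no more than 2 counts over the Fgfr2+ FB libraries together (log2 difference -7.06, adjusted p = 0.0168). Its call was lost in the model of 12 libraries (adjusted p = 0.103), and it could not be tested without any of the PDGFRahi FB libraries, where the list had 3 calls. Gdf6 met the count filter only through PDGFRahi FB, so its adjusted p and its call are descriptions and not evidence of a difference. Bmp4 went the other way in level without passing the test, at 1880.2, 1043 and 905 CPM in Fgfr2+ FB and 902, 874 and 622 in PDGFRahi FB (log2 difference 0.68, SE 0.31, adjusted p = 0.366). By mean TPM, Bmp4 was the highest BMP ligand of Fgfr2+ FB (1407 TPM) and Bmp5 that of PDGFRahi FB (1185 TPM).

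Antagonists that bind BMP outside the cell were called in both directions, though most members of the list were not called. Grem1, the gremlin of the crypt niche, was read at 37.3, 89.8 and 65.1 CPM in Fgfr2+ FB and 1.32, 1.84 and 3.18 in PDGFRahi FB. It was low but clearly present in the former and near the limit of counting in the latter (log2 difference 4.91, SE 0.64, adjusted p = 0.0029). Chrd, or chordin, was called in the opposite direction, at 110.0, 126 and 39.6 CPM in PDGFRahi FB and 2.56, 0.0919 and 3.68 in Fgfr2+ FB (log2 difference -5.56, SE 1.02, adjusted p = 0.0168), and it was lost without PDGFRahi FB replicate 1 (adjusted p = 0.0524) or PDGFRahi FB replicate 2 (adjusted p = 0.0636). Nbl1, another extracellular BMP antagonist, was the most abundant of the list in PDGFRahi FB (944 TPM) but missed the threshold, at 916, 1245 and 259 CPM there and 219, 164 and 68.7 in Fgfr2+ FB (log2 difference -2.41, SE 0.58, adjusted p = 0.0555). Of 14 BMP receptors and target genes, edgeR and DESeq2 each called 0, and 4 had an unadjusted p below 0.05.

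A different Wnt ligand was called in each direction. Wnt5a, a ligand of noncanonical Wnt signalling, was read at 676, 494 and 648 CPM in PDGFRahi FB and 39.7, 48.6 and 57.4 in Fgfr2+ FB, a wide gap with no overlap (log2 difference -3.65, SE 0.30, adjusted p = 0.000327). Wnt2b, a canonical ligand of the crypt niche, was read at 292, 308 and 210.3 CPM in Fgfr2+ FB and 32.9, 12.6 and 9.19 in PDGFRahi FB. All 3 Fgfr2+ FB libraries were high and all 3 others low (log2 difference 3.89, SE 0.52, adjusted p = 0.00327). These were the 2 called of 6 Wnt ligands tested. Of the secreted and membrane Wnt antagonists, 4 of 13 were called, Frzb and Wif1 among them as descriptions only. Sfrp1, a decoy that binds Wnt proteins, was abundant on the high side, at 4351, 4610.4 and 2845 CPM in Fgfr2+ FB and 27.4, 34.2 and 28.8 in PDGFRahi FB (log2 difference 7.03, SE 0.30, adjusted p = 1.19e-05). Frzb, a decoy of the same family, was read at 109.8, 63.5 and 34.6 CPM in Fgfr2+ FB and had 3 counts in all in PDGFRahi FB (log2 difference 9.52, SE 0.90, adjusted p = 0.000633). Frzb met the count filter only through Fgfr2+ FB, so its adjusted p and its call are descriptions and not evidence of a difference.

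Shisa3, which holds back Wnt and FGF receptors inside the cell, was read at 87.6, 42.2 and 47.4 CPM in Fgfr2+ FB and 6.97, 6.94 and 5.9 in PDGFRahi FB (log2 difference 3.16, SE 0.53, adjusted p = 0.0108), a call lost without PDGFRahi FB replicate 1, 2 or 3 (adjusted p between 0.0513 and 0.0664). Wif1, a secreted Wnt inhibitor, was the exception, at 6.05, 18.9 and 10.7 CPM in PDGFRahi FB and 0, 0 and 0.368 in Fgfr2+ FB (log2 difference -7.60, SE 1.58, adjusted p = 0.0308), lost without Fgfr2+ FB replicate 1 (adjusted p = 0.0513) or Fgfr2+ FB replicate 2 (adjusted p = 0.0803). Wif1 met the count filter only through PDGFRahi FB and could not be tested without any library of that population. Its adjusted p and its call are descriptions and not evidence of a difference. Of 7 genes that respond to canonical Wnt signals, Axin2 and Nkd1, both feedback inhibitors, were called. Axin2 was read at 72.2, 83.1 and 56.8 CPM in PDGFRahi FB and 20.3, 18.2 and 12.1 in Fgfr2+ FB, higher in every PDGFRahi FB library (log2 difference -2.06, SE 0.45, adjusted p = 0.037), and was lost without PDGFRahi FB replicate 1, 2 or 3 or Fgfr2+ FB replicate 2 or 3 (adjusted p between 0.0727 and 0.218). Nkd1 was read at 48.7, 61.9 and 55.2 CPM in PDGFRahi FB and 3.52, 7.35 and 9.19 in Fgfr2+ FB (log2 difference -3.07, SE 0.56, adjusted p = 0.0159), and was lost without PDGFRahi FB replicate 1, 2 or 3 (adjusted p between 0.0626 and 0.103). The R-spondins were scarce: Rspo3, the highest, was read at 28.3, 19.2 and 3.31 CPM in Fgfr2+ FB and 4.34, 2.98 and 0.34 in PDGFRahi FB (log2 difference 2.74, SE 1.09, adjusted p = 0.282). Of the 2 tested, edgeR and DESeq2 called 0, and 1 had an unadjusted p below 0.05.

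Among the FGF genes, the ligands mirrored the Wnt pattern with 1 called on each side of 8 tested. Fgf10, a ligand of the FGFR2b receptor of epithelia, was read at 82.3, 65.4 and 44.9 CPM in Fgfr2+ FB and 0.263, 1.09 and 1.47 in PDGFRahi FB. It was close to absent from all 3 PDGFRahi FB libraries (log2 difference 6.05, SE 0.74, adjusted p = 0.00179). Fgf9, a ligand known to act on gut mesenchyme, was read at 141, 137 and 154 CPM in PDGFRahi FB and 14.8, 6.25 and 9.56 in Fgfr2+ FB. The PDGFRahi FB values were nearly identical to each other and far above the rest (log2 difference -3.81, SE 0.45, adjusted p = 0.00152). Of 4 FGF receptors tested, Fgfr2 and Fgfr4 were called. Fgfr4 was scarce, at 0.76, 6.62 and 18.4 CPM in Fgfr2+ FB and 0 in every PDGFRahi FB library. Against the floor its mean was at least 28.7-fold higher in Fgfr2+ FB (adjusted p = 0.0487). This bound is for the mean and rests mainly on replicates 2 and 3. Fgfr4 met the count filter only through Fgfr2+ FB, so its adjusted p and its call are descriptions and not evidence of a difference. The call was lost without PDGFRahi FB replicate 1, 2 or 3 (adjusted p between 0.124 and 0.154). A fit blocked on replicate number did not call Fgfr4 either. Of 5 PDGF ligands and receptors tested, Pdgfra alone was called.

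Hedgehog ligands from the epithelium act on these cells through Ptch1. Ptch1 was read at 2616, 2458 and 1811 CPM in Fgfr2+ FB and 1104, 1405 and 1492 in PDGFRahi FB (log2 difference 0.78, SE 0.23, adjusted p = 0.114). Its groups did not overlap, but the difference was small and was not called. Of the 11 genes of this list, 8 had a positive difference and 7 an unadjusted p below 0.05, beside 2017 of all 14234 genes tested. Calls among the genes other than Ptch1 are not described here, so these values do not mean that the list held none.

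The TGF-beta family split by ligand, with 2 of 13 genes called (a further 1 in PDGFRahi FB without Fgfr2+ FB replicate 1 or 2). Tgfb2 was read at 192, 179.7 and 175 CPM in Fgfr2+ FB and 27, 36 and 42.6 in PDGFRahi FB, with little spread within either group (log2 difference 2.37, SE 0.33, adjusted p = 0.00436). Inhba, which encodes the subunit of activin A, was read at 511, 296 and 269 CPM in PDGFRahi FB and 39.7, 23.4 and 25 in Fgfr2+ FB, so each population led in a different ligand (log2 difference -3.60, SE 0.39, adjusted p = 0.00104). In the IGF axis 3 of 8 were called. Igfbp3, a carrier of IGF in the matrix, was read at 1869, 2973 and 1327 CPM in Fgfr2+ FB and 75.1, 174 and 50.5 in PDGFRahi FB, higher in every Fgfr2+ FB library (log2 difference 4.37, SE 0.51, adjusted p = 0.0015). The receptor gene Igf1r was read at 406, 469 and 516 CPM in Fgfr2+ FB and 129, 149.7 and 145 in PDGFRahi FB, a smaller difference but a tight one (log2 difference 1.71, SE 0.25, adjusted p = 0.00538). Igfbp5 went the other way, at 743, 799 and 1181 CPM in PDGFRahi FB and 392, 280.4 and 278 in Fgfr2+ FB (log2 difference -1.52, SE 0.28, adjusted p = 0.0175), and was lost without PDGFRahi FB replicate 3 or Fgfr2+ FB replicate 2 or 3 (adjusted p between 0.0546 and 0.0722). Its call was also lost under a setting that left out no library. The ligand gene Igf1 was not called, at 727, 555 and 829 CPM in Fgfr2+ FB and 303, 298 and 385 in PDGFRahi FB (adjusted p = 0.0531).

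Of 19 interstitial collagens tested, 2 were called higher in Fgfr2+ FB and 1 in PDGFRahi FB. Col12a1, a collagen that lies along fibrils and links them, was read at 4925, 5232 and 4929 CPM in PDGFRahi FB and 744, 1181 and 992 in Fgfr2+ FB, among the highest calls by CPM though not by TPM (log2 difference -2.37, SE 0.22, adjusted p = 0.000567). Col14a1, of the same class, had the reverse order at 1272, 1078 and 628 CPM in Fgfr2+ FB and 79.3, 89.9 and 147 in PDGFRahi FB. No library of either population crossed into the other group for either gene (log2 difference 3.23, SE 0.37, adjusted p = 0.00141). Col6a5, a chain of the beaded collagen VI, was read at 1167, 1007 and 1044 CPM in Fgfr2+ FB and 222, 245 and 203 in PDGFRahi FB, again with narrow groups (log2 difference 2.27, SE 0.23, adjusted p = 0.000735). Its call was lost in the model of all 30 libraries (adjusted p = 0.138). Col3a1, the most abundant of the list in Fgfr2+ FB (2789 TPM), was below the fold needed for a call, at 4853, 3749.7 and 3867 CPM there and 1467, 1628 and 1512 in PDGFRahi FB (log2 difference 1.44, SE 0.19, adjusted p = 0.00329).

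Of 28 basement membrane genes tested, 3 were called higher in Fgfr2+ FB and 4 in PDGFRahi FB. Col4a5 and Col4a6, neighbouring genes for the chains of a specialised collagen IV, were both higher in PDGFRahi FB. Col4a5 was read at 557, 459.6 and 581 CPM there against 6.77, 1.01 and 13.6 in Fgfr2+ FB, and it was close to absent from the latter (log2 difference -6.33, SE 0.79, adjusted p = 0.00198). Col4a6 was read at 128, 156 and 68 CPM in PDGFRahi FB and 6.7, 9.46 and 2.21 in Fgfr2+ FB (log2 difference -4.21, SE 0.60, adjusted p = 0.00475). Hspg2, or perlecan, the heparan sulphate proteoglycan of basement membranes, was read at 3837, 4094 and 2445 CPM in PDGFRahi FB and 809, 771 and 552 in Fgfr2+ FB. It was several times higher in each PDGFRahi FB library (log2 difference -2.28, SE 0.26, adjusted p = 0.00142). Lama1, a laminin alpha chain, had the reverse order at 248, 249 and 209.9 CPM in Fgfr2+ FB and 30.9, 20.8 and 17.9 in PDGFRahi FB (log2 difference 3.34, SE 0.35, adjusted p = 0.000889), and its call was lost in the model of all 30 libraries (adjusted p = 0.0698). Col15a1, a collagen at the border of basement membrane and stroma, was read at 835, 1068 and 865 CPM in Fgfr2+ FB and 145, 139 and 379.5 in PDGFRahi FB (log2 difference 2.05, SE 0.41, adjusted p = 0.0239), and was lost without PDGFRahi FB replicate 1 or 2 or Fgfr2+ FB replicate 2 or 3 (adjusted p between 0.0623 and 0.0929). The 3 calls higher in Fgfr2+ FB came to 1 without PDGFRahi FB replicate 1 or 2.

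Integrins, the receptors for matrix, followed with 3 called on each side of 17 tested. Itga11, a collagen receptor subunit of fibroblasts, was read at 1708, 1885 and 1308 CPM in PDGFRahi FB and 224, 225 and 146 in Fgfr2+ FB, without overlap (log2 difference -3.04, SE 0.27, adjusted p = 0.000544). Itgb3, a beta subunit that binds RGD ligands, was read at 655, 635 and 545 CPM in Fgfr2+ FB and 46, 83.9 and 44 in PDGFRahi FB, the reverse order and as clean a separation (log2 difference 3.40, SE 0.33, adjusted p = 0.000714). Itga8, the nephronectin receptor subunit, was read at 129, 227 and 90.4 CPM in Fgfr2+ FB and 1.58, 2.87 and 1.02 in PDGFRahi FB, near the limit of counting in the latter (log2 difference 6.31, SE 0.61, adjusted p = 0.000708).

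Of 20 elastic fibre and microfibril genes, 3 were called higher in Fgfr2+ FB and 1 in PDGFRahi FB. Fbln1 and Fbln2 encode fibulins of elastic fibres. Fbln1 was read at 339, 218 and 117 CPM in Fgfr2+ FB and 6.18, 7.59 and 14 in PDGFRahi FB (log2 difference 4.60, SE 0.54, adjusted p = 0.00151), and Fbln2 at 132, 315 and 146 and 8.15, 12.9 and 4.31 (log2 difference 4.54, SE 0.56, adjusted p = 0.00179). Both were scarce in every PDGFRahi FB library. Mfap4, a microfibril protein, was higher in level in both populations, at 1343, 1165 and 1055 CPM in Fgfr2+ FB and 402, 311 and 187 in PDGFRahi FB (log2 difference 1.99, SE 0.31, adjusted p = 0.00658). Fbn2, a fibrillin best known from development, had the reverse order at 406, 278 and 479 CPM in PDGFRahi FB and 46.2, 22.7 and 57 in Fgfr2+ FB, with no shared range (log2 difference -3.22, SE 0.42, adjusted p = 0.00268).

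Of 12 matricellular proteins, 3 were called higher in Fgfr2+ FB and 2 in PDGFRahi FB. Ogn, or osteoglycin, is itself a small leucine-rich proteoglycan. It was read at 489.5, 799 and 1028 CPM in PDGFRahi FB and 31, 54.4 and 75.4 in Fgfr2+ FB. The lowest PDGFRahi FB library was still several times above the highest of the other population (log2 difference -3.86, SE 0.43, adjusted p = 0.00107). Thbs2, a thrombospondin that restrains vessel growth, was read at 463, 311 and 488 CPM in Fgfr2+ FB and 79.9, 67.2 and 146 in PDGFRahi FB (adjusted p = 0.0136), and was lost without PDGFRahi FB replicate 1 (adjusted p = 0.0714) or PDGFRahi FB replicate 2 (adjusted p = 0.0611). The 3 matricellular calls higher in Fgfr2+ FB came to 0 without PDGFRahi FB replicate 1 or 2 and to 1 without PDGFRahi FB replicate 3 or Fgfr2+ FB replicate 3. Among the 8 genes tested in the list of small leucine-rich proteoglycans, which leaves out Ogn, Prelp was the 1 called. That count thus does not cover the whole family. Bgn, or biglycan, the most abundant of this list in both (10113 TPM in Fgfr2+ FB and 5781 in PDGFRahi FB), was not called (log2 difference 0.73, SE 0.17, adjusted p = 0.0514).

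Of 34 metalloproteases and inhibitors tested, 9 were called higher in Fgfr2+ FB and 3 in PDGFRahi FB. Mmp10, or stromelysin-2, was read at 792, 921 and 630.4 CPM in Fgfr2+ FB and 33.3, 14.9 and 96.4 in PDGFRahi FB, high in all 3 of the former (log2 difference 4.01, SE 0.63, adjusted p = 0.00711). The call was lost in the model of all 30 libraries (adjusted p = 0.0629). Adamts12, a secreted metalloprotease, was read at 537, 457 and 301 CPM in Fgfr2+ FB and 81.8, 55 and 93.8 in PDGFRahi FB, with no overlap (log2 difference 2.49, SE 0.34, adjusted p = 0.00384). Adam19, a membrane protease that sheds growth factors, went the other way at 3761, 3747 and 2902 CPM in PDGFRahi FB and 871, 532 and 717 in Fgfr2+ FB, again a full separation (log2 difference -2.30, SE 0.25, adjusted p = 0.000932). Timp3, an inhibitor of these enzymes held in the matrix, was read at 607, 441 and 441 CPM in PDGFRahi FB and 57.8, 161 and 65.8 in Fgfr2+ FB (log2 difference -2.39, SE 0.42, adjusted p = 0.0132), and was lost without Fgfr2+ FB replicate 3 (adjusted p = 0.0572). The 9 calls higher in Fgfr2+ FB came to 3 without PDGFRahi FB replicate 1 or 3 and to 5 without its replicate 2, and the 3 in PDGFRahi FB to 1 without Fgfr2+ FB replicate 3.

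Of 19 contractile genes tested, 7 were called higher in PDGFRahi FB, 1 in Fgfr2+ FB and 11 not at all, 13 had a negative difference, and the list median was -0.60. Myh11, the smooth muscle myosin heavy chain, was read at 1103, 1997 and 1381 CPM in PDGFRahi FB and 242, 318 and 217 in Fgfr2+ FB. All 3 PDGFRahi FB libraries were several times higher (log2 difference -2.53, SE 0.29, adjusted p = 0.00141), yet far below the sorted smooth muscle cells of the same tissue (11847 ± 2184 CPM, SD, n = 3). Acta2, smooth muscle actin, was read at 867, 1188 and 926 CPM in PDGFRahi FB and 267, 398 and 231 in Fgfr2+ FB (log2 difference -1.74, SE 0.28, adjusted p = 0.00836), and Tagln, an actin-binding protein, at 169.5, 333 and 219.9 and 21.2, 31.4 and 46.3 (log2 difference -2.88, SE 0.42, adjusted p = 0.00499). Neither gene had overlapping groups. Myl9, the regulatory myosin light chain, was read at 512, 714 and 278 CPM in PDGFRahi FB and 115, 108 and 97.8 in Fgfr2+ FB (log2 difference -2.23, SE 0.36, adjusted p = 0.00812). Cald1, or caldesmon, was the most abundant call of the list at 3732, 3707 and 4375 CPM in PDGFRahi FB and 1124, 1131 and 1033 in Fgfr2+ FB, with narrow groups (log2 difference -1.85, SE 0.19, adjusted p = 0.000795).

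Tpm2, a tropomyosin, was read at 555, 681 and 452 CPM in PDGFRahi FB and 173, 223 and 157 in Fgfr2+ FB (log2 difference -1.61, SE 0.27, adjusted p = 0.011), lost without PDGFRahi FB replicate 2 (adjusted p = 0.0615). Casq2, the calcium store protein calsequestrin, was read at 163, 210.3 and 126 CPM in PDGFRahi FB and 1.94, 18.9 and 22.1 in Fgfr2+ FB (log2 difference -3.57, SE 0.76, adjusted p = 0.0332), lost without PDGFRahi FB replicate 1, 2 or 3 or Fgfr2+ FB replicate 2 or 3 (adjusted p between 0.067 and 0.107). Myocd, the coactivator that turns on smooth muscle genes through serum response factor, was the exception. It was read at 90.5, 62 and 98.2 CPM in Fgfr2+ FB and 0.657, 1.46 and 1.25 in PDGFRahi FB, near the limit of counting in the population where the 7 others were called higher (log2 difference 6.17, SE 0.58, adjusted p = 0.000633).

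Serum response factor binds the CArG box, and the promoters of the 7 contractile genes called higher in PDGFRahi FB were read for it on both strands. The RefSeq promoter table for build GRCm38.p6 held 5 of the 7 (Acta2, Myl9, Tpm2, Cald1 and Casq2), with 250 bases before the transcript start. A full CArG box was found for Myl9 alone, and for 482 of all 32851 promoters of the table (1.47%). The Myl9 stretch, chr2:156775214-156775463 on the plus strand, is shown with the box in capitals, beside that of Acta2, chr19:34255374-34255623 on the minus strand, which holds no full match. A match is a description, and no match says only that these letters are not in the window. No mismatch was allowed, and the Acta2 stretch holds ccctatatgg and ccttgtttgg, which each differ from a full box by a single base.
Myl9: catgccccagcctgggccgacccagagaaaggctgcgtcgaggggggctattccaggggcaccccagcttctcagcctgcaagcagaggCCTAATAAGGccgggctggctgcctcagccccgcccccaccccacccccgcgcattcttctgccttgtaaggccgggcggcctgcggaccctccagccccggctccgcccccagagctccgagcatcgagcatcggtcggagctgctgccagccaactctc
Acta2: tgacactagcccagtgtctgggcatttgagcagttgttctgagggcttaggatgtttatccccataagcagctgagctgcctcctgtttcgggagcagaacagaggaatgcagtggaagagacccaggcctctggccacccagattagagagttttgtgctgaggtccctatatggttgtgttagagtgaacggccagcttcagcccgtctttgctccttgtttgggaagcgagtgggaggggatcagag

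Of 16 receptors for endothelin, purines, angiotensin and neurotransmitters, 3 were called on each side. Ednra and Ednrb, the endothelin receptors, were both higher in PDGFRahi FB. Ednra was read at 3049, 2650.2 and 2398 CPM there and 338, 393 and 256 in Fgfr2+ FB (log2 difference -3.04, SE 0.24, adjusted p = 0.000319), and Ednrb at 721, 559 and 1044 and 155, 49.8 and 115 (log2 difference -2.87, SE 0.44, adjusted p = 0.00664). For both genes the lowest PDGFRahi FB library lay well above the highest Fgfr2+ FB library. The ligand gene Edn3 was also higher in PDGFRahi FB, at 124, 172 and 141 CPM against 14.9, 1.75 and 4.04 (log2 difference -4.35, SE 0.74, adjusted p = 0.0113), and its call was lost without Fgfr2+ FB replicate 3 (adjusted p = 0.0532). Agtr1a, the angiotensin II receptor, was read at 88.1, 57.2 and 146 CPM in Fgfr2+ FB and 0.263, 0.434 and 0.227 in PDGFRahi FB, where it was at or near the limit of counting (log2 difference 8.17, SE 0.67, adjusted p = 0.000329). P2rx1, an ATP-gated cation channel, was read at 82.4, 104 and 54 CPM in Fgfr2+ FB and 2.1, 0.163 and 0.227 in PDGFRahi FB, present in all 3 of the former and almost none of the latter (log2 difference 6.69, SE 1.00, adjusted p = 0.00572).

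Of 22 potassium channel genes, 4 were called higher in PDGFRahi FB and 1 in Fgfr2+ FB, the latter lost without any 1 Fgfr2+ FB library. Kcnj8 and Abcc9 encode the pore and the sulphonylurea receptor of the same KATP channel and are neighbouring genes. Kcnj8 was read at 558, 682 and 422 CPM in PDGFRahi FB and 7.12, 41.1 and 17.3 in Fgfr2+ FB (log2 difference -4.66, SE 0.61, adjusted p = 0.00278). Abcc9 was read at 1560.0, 1598 and 2074 CPM in PDGFRahi FB and 21.8, 51.2 and 54.4 in Fgfr2+ FB (log2 difference -5.37, SE 0.41, adjusted p = 0.000212). The pair was thus low in all Fgfr2+ FB libraries and high in all PDGFRahi FB libraries. Kcnn3, a calcium-activated channel known from PDGFRa-positive cells of the gut, was read at 1218, 1139.6 and 1103 CPM in PDGFRahi FB and 374, 323 and 291 in Fgfr2+ FB, present in both with narrow groups (log2 difference -1.81, SE 0.22, adjusted p = 0.00198).

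Complement genes were higher in Fgfr2+ FB for 4 of 19 tested and in PDGFRahi FB for 2, with a list median of 1.33. The 2 in PDGFRahi FB, C7 and C5ar1, came to 0 under a setting that left out no library. C3, the component on which the pathways meet, was read at 633, 399 and 174 CPM in Fgfr2+ FB and 16.6, 14 and 13.5 in PDGFRahi FB. All 3 Fgfr2+ FB libraries were higher, with replicate 1 highest (log2 difference 4.78, SE 0.50, adjusted p = 0.000799). C4b was read at 1245, 813 and 482 CPM in Fgfr2+ FB and 66.4, 47.6 and 22 in PDGFRahi FB with the same order of replicates (log2 difference 4.23, SE 0.50, adjusted p = 0.00164). Cd55, a regulator that speeds the decay of C3 convertases, was read at 62.4, 160.0 and 146 CPM in Fgfr2+ FB and 1.45, 2.66 and 2.61 in PDGFRahi FB (log2 difference 5.75, SE 0.57, adjusted p = 0.000714). It was near the limit of counting in PDGFRahi FB.

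C7, of the membrane attack complex, had the reverse order at 1156, 1275 and 988 CPM in PDGFRahi FB and 228, 68.4 and 174 in Fgfr2+ FB, with replicate 2 lowest in the latter (log2 difference -2.86, SE 0.42, adjusted p = 0.00499). Its call was lost in the model of all 30 libraries (adjusted p = 0.0584). C5ar1, the receptor of the C5a fragment, was read at 85.1, 64 and 64.1 CPM in PDGFRahi FB and 0.484, 2.39 and 7.35 in Fgfr2+ FB (log2 difference -4.53, SE 0.88, adjusted p = 0.0224), and was lost without PDGFRahi FB replicate 1, 2 or 3 or Fgfr2+ FB replicate 2 (adjusted p between 0.0637 and 0.0849). Serping1, the C1 inhibitor and by mean TPM the most abundant of the list in both populations, was below the fold needed for a call (log2 difference 1.42, SE 0.28, adjusted p = 0.0217).

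Of 13 CXC and CX3C chemokines, 3 were called, all higher in Fgfr2+ FB. Cxcl13, which draws B cells, was read at 99.6, 24.8 and 98.9 CPM in Fgfr2+ FB and 2.1, 2.39 and 0.567 in PDGFRahi FB. The lowest Fgfr2+ FB library was still an order of magnitude above the highest of the others (log2 difference 5.44, SE 0.81, adjusted p = 0.0055). Cxcl9, an interferon-induced ligand of CXCR3, was read at 245, 132 and 134 CPM in Fgfr2+ FB and 37.3, 25.3 and 35.2 in PDGFRahi FB (log2 difference 2.39, SE 0.39, adjusted p = 0.00962), and was lost without PDGFRahi FB replicate 2 (adjusted p = 0.0573), where the list had 1 call. Cxcl12, the most abundant of this list in both populations by mean TPM (658 in Fgfr2+ FB and 1072 in PDGFRahi FB), was not called (log2 difference -0.64, SE 0.25, adjusted p = 0.275). Of 10 CC chemokines, edgeR called 0 and DESeq2 1, and 1 had an unadjusted p below 0.05. Ccl11, or eotaxin-1, led that list in both populations at 2637, 1367 and 1009 CPM in Fgfr2+ FB and 1205, 1031 and 821 in PDGFRahi FB, with overlap (log2 difference 0.71, SE 0.34, adjusted p = 0.401).

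Of 19 cytokines and growth factors for leukocytes, 3 were called and of 32 cytokine receptors 3, all higher in Fgfr2+ FB. Flt3l, the growth factor of dendritic cell precursors, was read at 255, 448 and 188 CPM in Fgfr2+ FB and 26.3, 45.3 and 43.7 in PDGFRahi FB, with no overlap (log2 difference 2.95, SE 0.42, adjusted p = 0.00436). Il33, an alarmin, was read at 94.3, 84.8 and 108 CPM in Fgfr2+ FB and 18.5, 24.1 and 5.22 in PDGFRahi FB (log2 difference 2.59, SE 0.57, adjusted p = 0.0393), and the call was lost without PDGFRahi FB replicate 1, 2 or 3 or Fgfr2+ FB replicate 1, 2 or 3 (adjusted p between 0.0511 and 0.138). The 3 cytokine calls came to 1 without any single library other than Fgfr2+ FB replicate 2. Il1r1, the receptor of interleukin 1, was read at 282, 420.0 and 433 CPM in Fgfr2+ FB and 105, 98.1 and 67.5 in PDGFRahi FB (log2 difference 2.07, SE 0.31, adjusted p = 0.00593). Il1rl2, the receptor of interleukin 36, was read at 310.1, 195 and 176 CPM in Fgfr2+ FB and 8.55, 10.5 and 4.31 in PDGFRahi FB, low in all 3 of the latter (log2 difference 4.86, SE 0.47, adjusted p = 0.000714).

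The populations differed in which retinaldehyde dehydrogenase, an enzyme that makes retinoic acid, was the higher. Aldh1a1 was read at 1327, 1907 and 1177 CPM in PDGFRahi FB and 117, 243 and 128 in Fgfr2+ FB (log2 difference -3.17, SE 0.35, adjusted p = 0.00111). Aldh1a3 was read at 1947, 1678 and 979 CPM in Fgfr2+ FB and 252, 446 and 179 in PDGFRahi FB (log2 difference 2.40, SE 0.38, adjusted p = 0.00819). Neither enzyme was absent from the population where it was lower. Lrat, which stores retinol as esters, was read at 218, 383 and 825 CPM in Fgfr2+ FB and 0.657, 2.39 and 6.69 in PDGFRahi FB, with replicate 3 highest in both (log2 difference 7.18, SE 0.87, adjusted p = 0.00176). Of 20 genes of the retinoid list, 4 were called.

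Of 18 lipid handling genes, 2 were called higher in Fgfr2+ FB and 1 in PDGFRahi FB. Scd1, the desaturase that makes monounsaturated fatty acids, was read at 50.6, 43.6 and 67.5 CPM in PDGFRahi FB and 0.346, 0.919 and 2.94 in Fgfr2+ FB (log2 difference -5.50, SE 0.85, adjusted p = 0.00683). Abca8a, a lipid transporter, was read at 533, 834 and 371 CPM in Fgfr2+ FB and 114, 137 and 112 in PDGFRahi FB (log2 difference 2.26, SE 0.33, adjusted p = 0.00538), and its call was lost in the model of all 30 libraries (adjusted p = 0.0969). Without PDGFRahi FB replicate 1 or 2, Abca8a was the 1 call on its side. For both genes the populations did not overlap. Of 13 prostaglandin genes, 2 were called, both higher in Fgfr2+ FB. Ptges, the inducible prostaglandin E synthase, was read at 46.5, 119.8 and 96.3 CPM in Fgfr2+ FB and 14.6, 17.2 and 11.3 in PDGFRahi FB (log2 difference 2.60, SE 0.49, adjusted p = 0.0189), and was lost without PDGFRahi FB replicate 1, 2 or 3 or Fgfr2+ FB replicate 2 or 3 (adjusted p between 0.0601 and 0.104). The list had 0 calls without any of these libraries, and 0 higher in Fgfr2+ FB under a setting that left out no library.

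Of 39 transcription factor genes tested, 5 were called higher in Fgfr2+ FB and 2 in PDGFRahi FB. The paired zinc finger repressors Zeb1 and Zeb2, both known for repressing epithelial genes, took opposite sides. Zeb2 was read at 2375, 2219 and 2452 CPM in Fgfr2+ FB and 118, 130.3 and 115 in PDGFRahi FB, with almost no spread within groups (log2 difference 4.28, SE 0.22, adjusted p = 2.39e-05). Zeb1 was read at 587, 669.7 and 817 CPM in PDGFRahi FB and 104, 52.3 and 78.3 in Fgfr2+ FB, so neither population lacked a Zeb gene (log2 difference -3.14, SE 0.33, adjusted p = 0.000889). Sox6, a factor of the SoxD group, was read at 1267, 1152 and 1928 CPM in PDGFRahi FB and 49.3, 13 and 44.5 in Fgfr2+ FB (log2 difference -5.36, SE 0.54, adjusted p = 0.000714). Snai2, a further zinc finger repressor, was read at 93.2, 82.1 and 116 CPM in Fgfr2+ FB and 12, 4.28 and 4.42 in PDGFRahi FB, with replicate 1 the highest of the low group (log2 difference 3.82, SE 0.56, adjusted p = 0.00519). The 5 calls higher in Fgfr2+ FB came to 3 without PDGFRahi FB replicate 1 or 3 and to 2 without its replicate 2. Foxl1, the winged helix factor often used to mark telocytes, was scarce in both, at 12.6, 26.1 and 5.22 CPM in PDGFRahi FB and 3.39, 14 and 3.68 in Fgfr2+ FB, and was not called (log2 difference -1.05, SE 0.88, adjusted p = 0.671).

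Of 22 semaphorin and axon guidance genes, 4 were called higher in Fgfr2+ FB and 2 in PDGFRahi FB. Efnb2, the ephrin of arterial borders, was read at 516, 419 and 365 CPM in PDGFRahi FB and 40.0, 36.3 and 48.2 in Fgfr2+ FB, far apart in every library (log2 difference -3.39, SE 0.30, adjusted p = 0.000476). Nrp1, a coreceptor for semaphorins and VEGF, was read at 295, 372 and 273 CPM in Fgfr2+ FB and 58.1, 52.3 and 83.2 in PDGFRahi FB, also without overlap (log2 difference 2.28, SE 0.32, adjusted p = 0.00396). The 4 calls higher in Fgfr2+ FB came to 2 without PDGFRahi FB replicate 1 or Fgfr2+ FB replicate 3 and to 1 without PDGFRahi FB replicate 2 or 3. The 2 in PDGFRahi FB came to 4 without Fgfr2+ FB replicate 1 and to 1 without its replicate 3 or PDGFRahi FB replicate 1 or 2. Of 15 angiogenic factors, 2 were called, both higher in PDGFRahi FB, 1 of them Edn3, and leaving out any 1 library ended either Edn3 or the other. Among 19 immediate early genes, the 2 called were both higher in PDGFRahi FB. Dusp1, a phosphatase induced by stress and dissociation, was read at 308, 279 and 245 CPM in PDGFRahi FB and 22.7, 31.9 and 82.3 in Fgfr2+ FB (log2 difference -2.62, SE 0.48, adjusted p = 0.0168), and was lost without PDGFRahi FB replicate 1, 2 or 3 or Fgfr2+ FB replicate 2 (adjusted p between 0.0535 and 0.0687). Btg2, an antiproliferative early gene, was read at 104, 82.2 and 173 CPM in PDGFRahi FB and 19.1, 29.1 and 15.4 in Fgfr2+ FB (log2 difference -2.50, SE 0.46, adjusted p = 0.0159), and was lost without PDGFRahi FB replicate 1 or 3 or Fgfr2+ FB replicate 3 (adjusted p between 0.0562 and 0.0772). Their part in the other differences was not tested.

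Other lists held no call by edgeR's quasi-likelihood test, which called 3.23% of all genes tested. Over those 14234 genes DESeq2 called 990, and 2017 had an unadjusted p below 0.05. Of 10 Notch genes 0 were called (1 without Fgfr2+ FB replicate 1), 2 by DESeq2, and 2 had an unadjusted p below 0.05. Under a further setting that left out no library, 3 Notch genes were called, all higher in Fgfr2+ FB. Of 7 neuregulin and EGF ligands 0 were called, 1 by DESeq2, and 2 had an unadjusted p below 0.05. Of 33 interferon-induced and antigen presentation genes 0 were called, 3 by DESeq2, and 8 had an unadjusted p below 0.05. Of 11 heat shock genes 0 were called by either tool and 1 had an unadjusted p below 0.05, with a list median of -0.32.

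**Figure D3:**
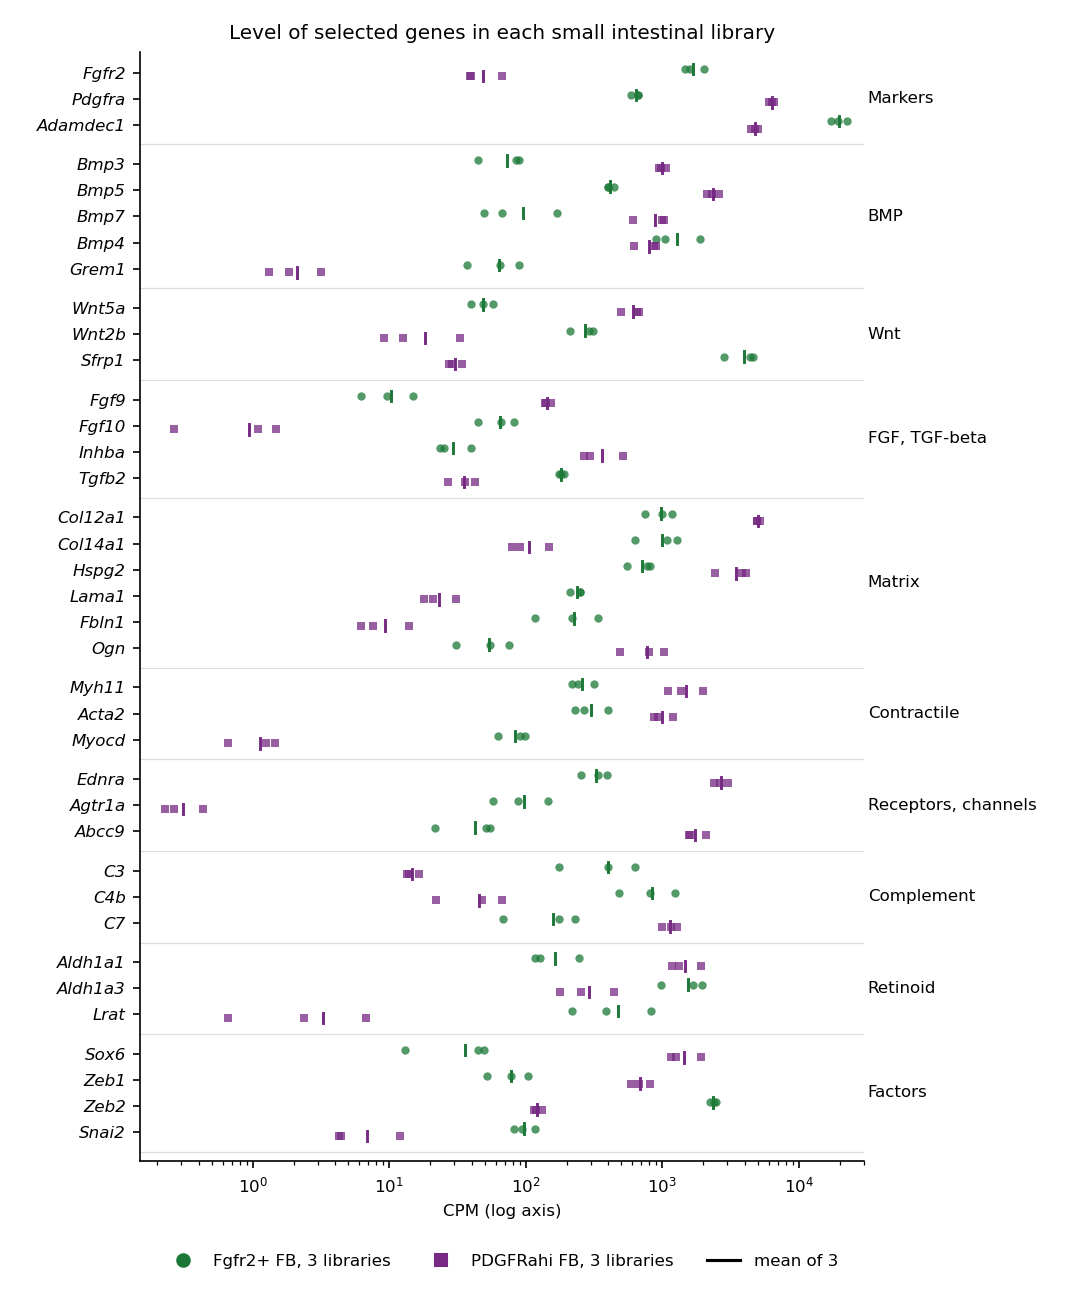
CPM (log axis) of 37 genes in the 3 Fgfr2+ FB libraries (green circles) and the 3 PDGFRahi FB libraries (purple squares), with the mean of each group as a line. Of the genes drawn, Bmp4 is the one whose difference was not called.

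Marker genes listed beforehand for the populations were chosen with the paper known and are not independent evidence. Of 18 listed for PDGFRahi FB, 14 were called, all higher in PDGFRahi FB, and of 16 listed for Fgfr2+ FB 10 were called, all higher in Fgfr2+ FB. Sertm1, a membrane protein gene of the latter, was read at 367, 243 and 208 CPM in Fgfr2+ FB and 10.7, 6.07 and 2.95 in PDGFRahi FB, with a clear gap (log2 difference 5.38, SE 0.54, adjusted p = 0.000735).

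Since the deposited values are per transcript, the isoforms of the markers could be read. Fgfr2-217 held 64.9, 75.6 and 80.7% of the gene's estimated count in Fgfr2+ FB and 72.7, 71.4 and 82.2% in PDGFRahi FB. Fgfr2-207 held 14.4, 13.6 and 8.77% in Fgfr2+ FB and 13.1, 20.3 and 8.36% in PDGFRahi FB. The ranges of the populations overlapped for both transcripts, so the same isoforms led in each. For Pdgfra, Pdgfra-201 held 67.5, 80.4 and 82.6% in Fgfr2+ FB and 61.6, 61.3 and 79.4% in PDGFRahi FB, and Pdgfra-202 most of the rest, also with overlap. Adamdec1 had a single transcript in the files.

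Markers of other cells of the gut wall were summed in each library, with no test of the sums. The 10 pericyte markers summed to 2207, 1866 and 2128 CPM in Fgfr2+ FB and 799, 1047 and 429 in PDGFRahi FB, against a mean of 39391 in the sorted pericytes. Every Fgfr2+ FB library was higher than every PDGFRahi FB library. Rgs5, a regulator of G protein signalling and the most abundant of these markers, set this order, at 1908, 1444 and 1889.8 CPM in Fgfr2+ FB and 261, 349 and 150.4 in PDGFRahi FB (log2 difference 2.79, SE 0.33, adjusted p = 0.0015), and it was the 1 called of 8 tested. Of these 8, 7 had a positive difference, the median was 1.02, 5 had an unadjusted p below 0.05 and DESeq2 called 3, while the markers other than Rgs5 together summed higher on average in PDGFRahi FB. The 10 smooth muscle markers summed to 1573, 2485 and 1662 CPM in PDGFRahi FB and 825, 771 and 576 in Fgfr2+ FB, against 23898 in the sorted smooth muscle cells, with Myh11 the 1 called of 10. The sum followed Myh11, as 7 of the 10 markers had a positive difference and their median was 1.13. The part of smooth muscle cells in the contractile differences was not tested.

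The 14 CD34+ fibroblast markers summed to 2497, 2028 and 1228 CPM in Fgfr2+ FB and 960.1, 1033 and 1516 in PDGFRahi FB, against 15349 in the sorted CD34+ fibroblasts. Of 10 tested, C3, Grem1 and Col14a1 were called higher in Fgfr2+ FB and Igfbp5 in PDGFRahi FB, all described above, and 5 had a positive and 5 a negative difference. Its sum was highest in Fgfr2+ FB replicate 1, as were C3 and C4b, and the part of such cells in those differences was not tested. Markers of interstitial cells of Cajal summed to 873, 738 and 1132 CPM in PDGFRahi FB and 328, 257 and 412 in Fgfr2+ FB. Of these 4, the factor gene Etv1 was called, at 459.9, 399.8 and 455 CPM in PDGFRahi FB and 85.7, 129.7 and 131 in Fgfr2+ FB (log2 difference -1.93, SE 0.28, adjusted p = 0.00519), a call lost in the model of all 30 libraries (adjusted p = 0.063).

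Blood and epithelial markers were low. The 15 epithelial markers summed to 75.2, 8.09 and 11.4 CPM in Fgfr2+ FB and 6.05, 9.82 and 5.56 in PDGFRahi FB, with nearly all of the value of Fgfr2+ FB replicate 1 from Lgals4 (73.3, 1.65 and 3.68 CPM in Fgfr2+ FB). Endothelial markers summed to 83.9, 90.5 and 56.2 CPM in Fgfr2+ FB and 62.2, 48 and 94.4 in PDGFRahi FB, and leukocyte markers to 20.7, 72.7 and 32 and 34.6, 38.2 and 14.2. Plasma cell markers summed to 6.7, 582 and 162 CPM in Fgfr2+ FB and 65.3, 62.3 and 18.3 in PDGFRahi FB. The high values came from immunoglobulin genes in Fgfr2+ FB replicates 2 and 3: Igkc, the kappa constant region, was read at 0.138, 248 and 89.7 CPM in Fgfr2+ FB and 0, 0.38 and 0.454 in PDGFRahi FB. Igkc was the called gene whose groups overlapped (log2 difference 8.50, SE 1.98, adjusted p = 0.0493), and its call was lost without PDGFRahi FB replicate 1 (adjusted p = 0.153) or PDGFRahi FB replicate 3 (adjusted p = 0.21). Markers of glia and neurons, of mesothelium and of erythroid cells each summed to at most 45.0 CPM in any library. No gene of the epithelial, endothelial, leukocyte, glial, mesothelial or erythroid lists was called by edgeR. DESeq2 called 1 of them, an endothelial gene, and 2 endothelial and 1 leukocyte gene had an unadjusted p below 0.05.

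Set among the 5 sorted populations of the small intestine, the genes called higher in PDGFRahi FB were mostly highest there. Of these 227 genes, 171 (75.3%) had their highest mean CPM in PDGFRahi FB, 30 in pericytes, 20 in smooth muscle cells and 6 in CD34+ FB. Of the 233 genes called higher in Fgfr2+ FB, 104 (44.6%) had their highest mean in Fgfr2+ FB itself, 65 (27.9%) in CD34+ FB, 44 in smooth muscle cells and 20 in pericytes. Over all genes tested, 16.7% were highest in PDGFRahi FB, 21.4% in Fgfr2+ FB, 11.2% in CD34+ FB, 22.3% in smooth muscle cells and 28.5% in pericytes. The choice of genes raises the share for its own population, so these are descriptions.

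Single genes show these patterns. C3, at 402 ± 229 CPM (SD, n = 3) in Fgfr2+ FB, stood at 8939.8 ± 2478 in CD34+ FB. Sfrp1, at 3935 ± 954 CPM in Fgfr2+ FB, stood at 7752 ± 1774 in CD34+ FB and 2727 ± 1895 in smooth muscle cells. For both genes Fgfr2+ FB was thus above PDGFRahi FB and below CD34+ FB. Abcc9, at 1744 ± 287 CPM in PDGFRahi FB, stood at 2065 ± 239.5 in pericytes and 23.2 ± 6.41 in CD34+ FB. Lrat, at 475 ± 314 CPM in Fgfr2+ FB, stood at 99.9 ± 42.7 in CD34+ FB, 35.1 ± 29.6 in smooth muscle cells and 18.8 ± 21.9 in pericytes, so it was highest in Fgfr2+ FB. Bmp3, at 998 ± 64.7 CPM in PDGFRahi FB, did not exceed 18.4 CPM on average in the smooth muscle cells, pericytes and CD34+ FB. It was highest in PDGFRahi FB by a wide margin.

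**Figure D4:**
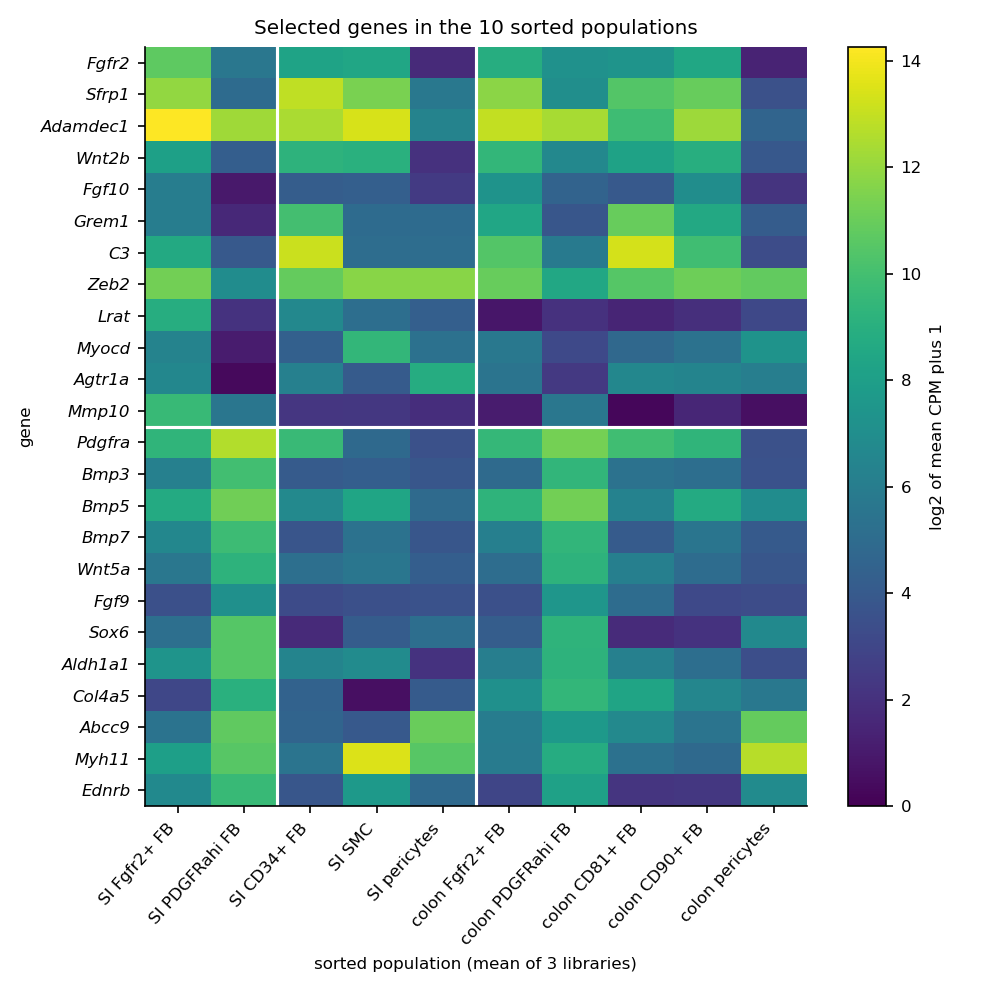
Colour gives the log2 of the mean CPM plus 1 (3 libraries) of 24 genes called in the small intestinal comparison, for the 5 small intestinal and 5 colonic populations, with genes higher in Fgfr2+ FB above the white line and those higher in PDGFRahi FB below it. Lrat and Mmp10 are high in the small intestinal Fgfr2+ FB and not in the colonic population of that name.

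The colon held populations under the same names, sorted by other gates (ESAM-1-PDPNhiCD34+CD90- cells as Fgfr2+ FB and ESAM-1-PDPN+CD34- cells as PDGFRahi FB), so tissue and gate cannot be told apart. The interaction, the small intestinal difference minus the colonic one, was tested in the 12 libraries. It was called for 201 of 15673 genes (1.28%). Of the 460 genes called in the small intestine, 127 were called for the interaction too, 125 of them with the interaction in the direction of the small intestinal difference. The interaction uses the same small intestinal libraries, so this overlap and shared direction are partly built in and are descriptions. Of the 201, 112 were called without each of the 12 libraries in turn.

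Lrat was the clearest retinoid case: its small intestinal Fgfr2+ FB values were high, while the colonic means were 0.847 ± 0.76 CPM in Fgfr2+ FB and 3.02 ± 4.44 in PDGFRahi FB (interaction 8.99, SE 1.54, adjusted p = 0.0061). That call was lost without colonic PDGFRahi FB replicate 2 (adjusted p = 0.146). For Mmp10 the colonic order was turned, with 1.11 ± 0.72 CPM in colonic Fgfr2+ FB and 48.9 ± 21.7 in colonic PDGFRahi FB (interaction 9.46, SE 0.93, adjusted p = 0.000172). For P2rx1 the colonic means were 0 and 3.33 ± 2.51 CPM, and the interaction was called (adjusted p = 0.0012). Col12a1 was alike in the colonic pair at 3588 ± 437 and 3353 ± 344 CPM (interaction -2.47, SE 0.26, adjusted p = 0.000239). C7 was low in both colonic populations, at 6.99 ± 3.72 and 0.99 ± 1.5 CPM (interaction -5.70, SE 0.96, adjusted p = 0.00524). Igfbp5 stood in the opposite order in the colon, at 1484 ± 346 CPM in Fgfr2+ FB and 579.9 ± 274 in PDGFRahi FB (interaction -2.87, SE 0.48, adjusted p = 0.00538).

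For other genes the interaction was not called. Bmp5 stood at 625 ± 102 CPM in colonic Fgfr2+ FB and 2435 ± 251 in colonic PDGFRahi FB (interaction -0.53, SE 0.26, adjusted p = 0.457). Bmp3 stood at 29.3 ± 12.2 and 663 ± 111 CPM in the same order (interaction 0.72, SE 0.43, adjusted p = 0.583), and Wnt5a at 33.3 ± 17.7 and 599 ± 78.7 (interaction 0.52, SE 0.50, adjusted p = 0.779). These 3 ligands were higher on average in the population named PDGFRahi FB in both tissues, and a p above the threshold does not show that the differences were equal.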

How the data were processed

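The deposited files hold, per the file headers, an estimated count and TPM for each of 98492 transcripts in each library. Per the submitters' processing notes, the authors trimmed reads with Trim Galore 0.4.0, checked them with FastQC 0.11.2 and quantified them with kallisto 0.42.5, and they name the builds mm10 and GRCm38. The deposited estimated count was summed over the 97116 transcripts matched to 32342 genes of the GRCm38 annotation and rounded. TPM, made by the authors' kallisto run per effective length, was summed to genes and served for levels between genes. Testing covered each gene that reached 6 counts in 3 or more libraries, using edgeR 4.0.16 (R 4.3.3, limma 3.58.1), TMM and a quasi-likelihood fit of the 6 libraries, or of 12 for the interaction. SE is the absolute log2 difference over the square root of F. The floor of 3 counts covers counting error only, as do all statements about genes near it. An exact permutation of 3 against 3 libraries cannot go below p = 0.10, so none was used.

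Alternatives were DESeq2 1.42.0, RLE scaling, other filters (none, or 10 counts in every library of a population), other fold thresholds, single transcripts, models of 12 or 30 libraries, the replicate number as a block, and leaving out each library. Named genes were, in each direction, the 10 with the largest difference and the 10 with the highest mean TPM among calls without overlap and with a mean of at least 10 CPM, called members of the lists, the most abundant members not called, the sorting markers and the 5 largest interactions, and not every one is printed. The members and lists were chosen with earlier results of these data known. Rounding is to 3 digits, or 2 decimals on the log2 scale. Sequence shared by transcripts of other genes was checked in 31-base words.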

Additional observations from a re-analysis of the deposited data

Results flagged for a closer look

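The genes below were called both in the small intestinal comparison and for the interaction, so the subset difference itself differed between small intestine and colon. Values are interactions on the log2 scale, small intestinal difference minus colonic difference, positive where the small intestinal difference was the higher of the pair. For Ednrb and Il33 the sign is opposite to that of the small intestinal difference, as the colonic difference ran the same way and was larger. The colonic gates were not the same, so tissue and gate cannot be told apart, and no cause was tested. The values above 9 in size belong to genes at or near 0 in some population and depend on the small count that the fit adds.

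Positive, and called without each of the 12 libraries in turn, were P2rx1 (14.66), Mmp10 (9.46), Frzb (6.54), Itga8 (5.78), Hpse (5.63), Agtr1a (4.77), Lama1 (4.69), Il1rl2 (4.01) and Fgfr2 (3.44). The next in that direction were Ptges (3.37), Tmem176b (3.24), Snai2 (3.24), Itgb3 (3.18), Tmem176a (2.84), Ncam1 (2.82), Sulf2 (2.33), Sfrp1 (2.31) and Thbs2 (2.25). Smaller ones in that direction were Il1r1 (2.23), Col6a5 (2.03) and Zeb2 (1.90).

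Negative, also called without each library in turn, were Chrd (-6.34), C7 (-5.70), Scd1 (-4.50), Il33 (-4.48), Trp53i11 (-4.10), Dusp1 (-4.07), Abcc9 (-3.66), Btg2 (-3.64), Timp3 (-3.34) and Igfbp5 (-2.87). Next on this side were Cacna1d (-2.58), Srebf2 (-2.56), Sulf1 (-2.52), Col12a1 (-2.47), Itga11 (-2.43), Gria3 (-2.33), Zeb1 (-1.98), Ednra (-1.79) and Hspg2 (-1.75).

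Other interactions depended on single libraries. Tlr12 (12.19) lost its call without colonic Fgfr2+ FB replicate 2, colonic PDGFRahi FB replicate 3 or small intestinal PDGFRahi FB replicate 1 or 2, at an adjusted p of up to 0.0644. Fgfr4 (10.04) lost its call without colonic Fgfr2+ FB replicate 1, 2 or 3, colonic PDGFRahi FB replicate 2 or 3, small intestinal Fgfr2+ FB replicate 3 or small intestinal PDGFRahi FB replicate 1, 2 or 3, at an adjusted p of up to 0.0913. Lrat (8.99) lost its call without colonic PDGFRahi FB replicate 2, at an adjusted p of up to 0.146. Sertm1 (5.45) lost its call without colonic Fgfr2+ FB replicate 2 or 3, colonic PDGFRahi FB replicate 3, small intestinal Fgfr2+ FB replicate 1 or small intestinal PDGFRahi FB replicate 2 or 3, at an adjusted p of up to 0.173. Cxcl13 (5.05) lost its call without colonic Fgfr2+ FB replicate 3 or colonic PDGFRahi FB replicate 3, at an adjusted p of up to 0.0601. Gria4 (4.69) lost its call without colonic Fgfr2+ FB replicate 1, 2 or 3, colonic PDGFRahi FB replicate 1, 2 or 3, small intestinal Fgfr2+ FB replicate 2 or 3 or small intestinal PDGFRahi FB replicate 1 or 2, at an adjusted p of up to 0.13. Fgf10 (3.18) lost its call without colonic Fgfr2+ FB replicate 2 or 3 or colonic PDGFRahi FB replicate 1, at an adjusted p of up to 0.061. Fbln2 (2.72) lost its call without colonic Fgfr2+ FB replicate 1, 2 or 3, colonic PDGFRahi FB replicate 1, 2 or 3, small intestinal Fgfr2+ FB replicate 2 or small intestinal PDGFRahi FB replicate 1 or 3, at an adjusted p of up to 0.125.

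The remainder were as follows. Ednrb (2.50) lost its call without colonic Fgfr2+ FB replicate 2 or 3, colonic PDGFRahi FB replicate 2 or small intestinal PDGFRahi FB replicate 1 or 2, at an adjusted p of up to 0.0606. Flt3l (2.47) lost its call without colonic Fgfr2+ FB replicate 1 or 2, colonic PDGFRahi FB replicate 1 or 2, small intestinal Fgfr2+ FB replicate 2 or small intestinal PDGFRahi FB replicate 1 or 2, at an adjusted p of up to 0.0989. Pdgfra (-1.55) lost its call without colonic Fgfr2+ FB replicate 3 or small intestinal Fgfr2+ FB replicate 3, at an adjusted p of up to 0.00444, as its size fell below 1.5. Axin2 (-3.09) lost its call without colonic Fgfr2+ FB replicate 2, colonic PDGFRahi FB replicate 1 or 3 or small intestinal PDGFRahi FB replicate 1 or 2, at an adjusted p of up to 0.0838. Kcnj8 (-3.94) lost its call without colonic PDGFRahi FB replicate 1 or 3, at an adjusted p of up to 0.0512. Col4a5 (-4.08) lost its call without colonic PDGFRahi FB replicate 1 or 2, at an adjusted p of up to 0.0683. Gdf6 (-15.21) lost its call without colonic Fgfr2+ FB replicate 3, colonic PDGFRahi FB replicate 1, 2 or 3, small intestinal Fgfr2+ FB replicate 1, 2 or 3 or small intestinal PDGFRahi FB replicate 1, 2 or 3, at an adjusted p of up to 1.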

How the results depend on the processing

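All 460 genes called by edgeR were also called by DESeq2, which called 990, and none of the 460 changed direction in any fit of genes that could test it. Single transcripts were not compared in this way. The count was 466 with RLE scaling, 560 with no filter, 564 with the stricter filter, 664 in the model of 12 libraries, 444 in that of 30, 490 at a fold threshold of 1 and 492 with none. For single transcripts it was 68. Higher in Fgfr2+ FB were 233 genes, 484 by DESeq2, 34 as single transcripts, and 132, 132, 148, 198, 159 and 169 on leaving out PDGFRahi FB replicates 1 to 3 and Fgfr2+ FB replicates 1 to 3. Higher in PDGFRahi FB were 227, 506 by DESeq2, 343 in the model of 12 libraries, 34 as single transcripts, and 101, 99, 119, 240, 171 and 194 in that order. The total came to 233, 231, 267, 438, 330 and 363, and the 125 pathway genes to 80, 80, 87, 120, 101 and 100. The 201 interactions came to 563 by DESeq2, 339 with no filter, and from 141 to 225 on leaving out 1 of the 12 libraries. Under every setting but single transcripts, 163 of the 460 (35.4%) were called.

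The labels name 3 mice and the study sorted subsets from the same animals, but neither says that a replicate number marks a mouse. Deviations of same-numbered libraries had correlations of 0.0235, 0.0607 and 0.0921, and those of different number ran from -0.0754 to 0.0329. These values do not settle whether libraries are paired, and the main fit took them as independent. Each library but PDGFRahi FB replicate 1 correlated best with its own number, a hint from the data and not the design. With the number as a block 441 genes were called, 377 of the 460 among them, and 175 interactions. Of the genes named, Fgfr4 was not called under the block (adjusted p = 0.0633), and Fgfr4, Cxcl13 and Gdf6 were not called for the interaction. Of the genes named and not called, Lgals4 turned from 2.51 to -0.84 without Fgfr2+ FB replicate 1, and was 3.06 without its replicate 2.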

Other observations

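Further gene groups were read after the values had been seen, and these lists were chosen for that reason, so their counts are descriptions only. Of 30 genes of sterol synthesis and uptake tested, 6 were called, all higher in PDGFRahi FB, 25 had a negative difference and the list median was -1.85. Srebf2, the factor that turns these genes on when sterol is short, was read at 183, 205 and 161 CPM in PDGFRahi FB and 18, 17.7 and 36 in Fgfr2+ FB. All PDGFRahi FB libraries were several times higher (log2 difference -2.95, SE 0.40, adjusted p = 0.00364). Sqle, or squalene epoxidase, was read at 238, 176 and 226 CPM in PDGFRahi FB and 61.7, 78.9 and 46.3 in Fgfr2+ FB (log2 difference -1.78, SE 0.33, adjusted p = 0.0182), and was lost without PDGFRahi FB replicate 1 or 3 or Fgfr2+ FB replicate 3 (adjusted p between 0.0565 and 0.108). Of the 6 calls, 2 were kept without PDGFRahi FB replicate 1 and 3 without its replicate 2 or 3.

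Genes that modify heparan and chondroitin sulphate split, with 3 called higher in Fgfr2+ FB and 5 in PDGFRahi FB (3 of them without PDGFRahi FB replicate 2) of 37 tested. The sulphatases Sulf1 and Sulf2, which trim heparan sulphate outside the cell, took opposite sides between Fgfr2+ FB and PDGFRahi FB. Neither was particular to its side, as CD34+ FB of the same tissue had means of 146.9 CPM for Sulf1 and 1295.9 for Sulf2. The Sulf2 mean of Fgfr2+ FB was 575.6. Sulf1 was read at 847, 707 and 856 CPM in PDGFRahi FB and 59.6, 46.8 and 41.9 in Fgfr2+ FB (log2 difference -4.02, SE 0.28, adjusted p = 0.000137), and Sulf2 at 497, 719.7 and 511 CPM in Fgfr2+ FB and 5, 11.4 and 8.05 in PDGFRahi FB (log2 difference 6.13, SE 0.42, adjusted p = 0.000123). No library departed from this order. Hs3st3b1, a sulphotransferase of heparan sulphate, was read at 376, 369 and 386 CPM in PDGFRahi FB and 85.7, 35.7 and 61.8 in Fgfr2+ FB (log2 difference -2.63, SE 0.36, adjusted p = 0.00379), a call lost in the model of all 30 libraries (adjusted p = 0.209). Hpse, the heparanase that cleaves the chains, was read at 21.7, 77.1 and 57 CPM in Fgfr2+ FB and 1.18, 2.06 and 0.227 in PDGFRahi FB (log2 difference 5.43, SE 0.90, adjusted p = 0.00962).

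Subunits of AMPA and GABA-A receptors, best known from neurons, were called higher in Fgfr2+ FB for 3 of 12 tested and in PDGFRahi FB for 1. Gabra3 was read at 221, 123 and 197 CPM in Fgfr2+ FB and 7.36, 1.41 and 2.95 in PDGFRahi FB, with no overlap (log2 difference 5.56, SE 0.66, adjusted p = 0.00167). Gria4 was read at 73.2, 83.3 and 91.9 CPM in Fgfr2+ FB and 0.132, 0.163 and 3.4 in PDGFRahi FB (log2 difference 6.09, SE 1.13, adjusted p = 0.0175), lost without Fgfr2+ FB replicate 3 (adjusted p = 0.0544), where 1 of the 3 was kept. Gria3 had the reverse order at 310.2, 289 and 424 CPM in PDGFRahi FB and 60.6, 87.8 and 66.5 in Fgfr2+ FB, present in both (log2 difference -2.25, SE 0.31, adjusted p = 0.00369). Of 34 genes of calcium channels and calcium stores, 7 were called, all higher in PDGFRahi FB, and the list median was -0.13. Of the 7, 1 was kept without PDGFRahi FB replicate 1 or 2, 4 without its replicate 3 and 2 without Fgfr2+ FB replicate 3. Cacna1d, the pore of an L-type channel, was read at 251, 284 and 363 CPM in PDGFRahi FB and 60.2, 91.7 and 71.7 in Fgfr2+ FB (log2 difference -2.01, SE 0.31, adjusted p = 0.00658), a call lost in the model of all 30 libraries (adjusted p = 0.204). Of 16 serpin genes, 4 were called, all higher in Fgfr2+ FB (2 kept without PDGFRahi FB replicate 3 or Fgfr2+ FB replicate 1 or 3, and 1 without Fgfr2+ FB replicate 2). Serpina3n, an inhibitor of serine proteases, was read at 207, 168 and 107 CPM in Fgfr2+ FB and 6.97, 7.05 and 1.13 in PDGFRahi FB, high in all 3 of the former (log2 difference 4.99, SE 0.68, adjusted p = 0.00369).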
